A study of Homo sapiens with 12 samples.

Results

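CC chemokines were examined across 4 states of MRC5 cells, a line of human embryonic lung fibroblasts. The members were 6 genes taken by their symbols from the count table: CCL2, CCL5, CCL7, CCL8, CCL20 and CCL26, out of 57500 genes listed. 4 of these 6 members (CCL2, CCL5, CCL7 and CCL20) passed the filter on low counts, which left 16251 genes for testing, while CCL8 and CCL26 stayed too low in most libraries. The groups were proliferating cells (Prol), cells brought to senescence by 20 Gy of X-rays (Sen(IR)), irradiated cells kept in UK5099, an inhibitor of the mitochondrial pyruvate carrier (Sen(IR)+UK5099), and irradiated cells kept in CTPI2, an inhibitor of the mitochondrial citrate carrier SLC25A1 (Sen(IR)+CTPI2). Each group had 3 RNA-seq libraries. According to the methods, UK5099 was used at 100 μM and CTPI2 at 15 or 30 μM, both from 1 day after irradiation, and the labels do not say which CTPI2 dose was sequenced. All groups are the same fibroblast line in culture, without immune cells that could respond to these chemokines, and the labels do not state whether the 3 libraries of a group came from separate cultures, so p-values measure only the spread between these libraries.

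Chemokines are small secreted proteins that guide leukocytes along concentration gradients through G-protein-coupled receptors. In the CC class, the first cysteines of the mature protein lie next to each other. Fibroblasts and other stromal cells are known to produce several of them when exposed to inflammatory cytokines, and they belong to the senescence-associated secretory phenotype (SASP), the mixture of factors that senescent cells release. CCL2, CCL7 and CCL8 are known as monocyte attractants and share the receptor CCR2, among others. CCL5 attracts T cells and monocytes. CCL20 is the chemokine ligand of CCR6, a receptor of dendritic cell precursors and some lymphocytes. CCL26, also called eotaxin-3, attracts eosinophils through CCR3.

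The members lie at 4 places in GRCh38. CCL2 (ENSG00000108691, chromosome 17, 34255274 to 34257208), CCL7 (ENSG00000108688, chromosome 17, 34270221 to 34272242) and CCL8 (ENSG00000108700, chromosome 17, 34319435 to 34321402) lie in one cluster of CC chemokine genes on the plus strand. CCL5 (ENSG00000271503, chromosome 17, 35871491 to 35880793) lies farther along the same chromosome on the minus strand. CCL20 (ENSG00000115009) is at chromosome 2, 227805739 to 227817564, on the plus strand, and CCL26 (ENSG00000006606) at chromosome 7, 75769533 to 75789896, on the minus strand. In GENCODE annotation no exon of any member overlaps an exon of another gene (0% of exon bases), so the strand of the reads, which is not given in the sources used here, does not divide their counts.

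RefSeq promoter windows were at hand for 4 of the 6 members (CCL7, CCL8, CCL20 and CCL26; table build GRCh38.p14). They are printed because CCL7, CCL20 and CCL26 each had at most 1 count over the 3 UK5099 libraries, and they let the start regions of the members be set side by side. Each is written 5′ to 3′ on the strand of its gene and starts 250 bases before the transcription start. The sequences of CCL7 (chr17:34269971-34270220) and CCL8 (chr17:34319185-34319434) run up to the start. That of CCL20 (chr2:227813592-227813821) ends at position −21 and that of CCL26 (chr7:75789897-75789996, minus strand) at position −151, before annotated exons of other transcripts of these genes. Capitals mark matches to a loose NF-κB pattern (GGG and CC with any 5 bases between them, both strands), an AP-1 pattern (TGANTCA, both strands) and a TATA box (TATAAA, strand of the gene).
CCL7: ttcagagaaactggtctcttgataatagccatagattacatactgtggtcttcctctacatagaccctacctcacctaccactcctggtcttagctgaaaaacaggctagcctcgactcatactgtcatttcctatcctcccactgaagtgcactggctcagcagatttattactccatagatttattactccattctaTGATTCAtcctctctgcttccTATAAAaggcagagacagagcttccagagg
CCL8: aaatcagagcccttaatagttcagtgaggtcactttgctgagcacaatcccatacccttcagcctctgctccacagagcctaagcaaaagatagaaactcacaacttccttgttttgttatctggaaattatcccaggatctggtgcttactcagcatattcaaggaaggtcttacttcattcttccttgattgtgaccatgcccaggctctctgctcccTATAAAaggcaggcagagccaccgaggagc
CCL20: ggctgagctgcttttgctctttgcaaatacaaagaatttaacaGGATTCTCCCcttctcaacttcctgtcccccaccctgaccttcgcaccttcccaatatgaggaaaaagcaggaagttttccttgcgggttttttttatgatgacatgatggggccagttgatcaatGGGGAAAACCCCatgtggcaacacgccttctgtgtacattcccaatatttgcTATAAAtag
CCL26: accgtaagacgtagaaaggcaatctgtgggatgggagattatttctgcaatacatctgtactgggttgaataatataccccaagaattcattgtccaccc

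CCL7 and CCL8, of the same cluster, both held TATAAA from position −30, and their windows shared a run of 14 bases, CCTATAAAAGGCAG, from position −32 in each. CCL20 held it from −29. This word occurs in 6.8% of 35116 RefSeq promoters over the same 250 bases, and it was present in 3 of the 4 windows here. CCL7 also held TGATTCA from −51 to −45, an AP-1 pattern found in 6.57% of promoters. In CCL20 the run in capitals from −81 to −70 matched the NF-κB pattern in 3 overlapping frames (GGGGAAAACC, GGGAAAACCC and, read on the other strand, GGAAAACCCC), and another match (GGATTCTCCC) began at −207. A further match began at −21, outside the bases printed. The NF-κB pattern is so loose that 54.4% of promoters hold it. A STAT pattern (TTCNNNGAA, both strands, 6.57% of promoters) was matched in CCL7 by TTCAGAGAA from −250 and in CCL8 by TTCAAGGAA from −91, and a C/EBP pattern (TTNNGNAAT, both strands, 9.85%) was matched 2 times in CCL26, from −208 (in lower case above) and from −128, outside the bases printed. Searches on both strands for a STAT6 pattern (TTC and GAA, 4 bases apart) and an interferon response pattern (GAAA repeated with 2 bases between) gave no match in the 4 windows, where 5.38% and 3.02% of promoters hold them. The patterns are descriptions of letters and were not measured as binding sites.

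Total counts per library ran from 20597736 to 28245693. Levels are given as CPM, counts scaled to the TMM-adjusted library size, and 3 counts in a library, the limit that a count of 0 allows, came to between 0.111 and 0.147 CPM. The labelled cell type was checked with marker genes: all 8 fibroblast markers were present in every group, with summed levels of 20700 to 24500 CPM (Prol), 19800 to 20400 CPM (Sen(IR)), 17400 to 19200 CPM (CTPI2) and 10500 to 11000 CPM (UK5099). The 7 leukocyte and macrophage markers summed to 0.343 to 0.554 CPM (Prol), 3.18 to 4.27 CPM (Sen(IR)), 4.20 to 5.21 CPM (CTPI2) and 2.75 to 3.74 CPM (UK5099). CD14 was the only gene of that list to pass the filter. The 5 epithelial markers summed to 9.81 to 11.8 CPM (Prol), 8.05 to 9.47 CPM (Sen(IR)), 8.69 to 9.68 CPM (CTPI2) and 8.91 to 10.2 CPM (UK5099). Of these, EPCAM and KRT8 passed the filter. The 4 endothelial markers summed to 3.64 to 6.22 CPM (Prol), 1.42 to 1.96 CPM (Sen(IR)), 1.69 to 2.72 CPM (CTPI2) and 0.736 to 1.08 CPM (UK5099), and VWF and KDR passed. Intervals of counts cover counting error only. In bulk RNA, fewer cells that express a gene and less RNA per cell cannot be told apart.

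CCL2 carried most of the CC chemokine RNA in all 4 groups. Its counts were 349, 412 and 436 in Prol, 4844, 4656 and 4726 in Sen(IR), 67, 83 and 68 under UK5099, and 3750, 3832 and 4086 under CTPI2. No library of one group reached the range of another, and the order was Sen(IR), CTPI2, Prol, UK5099. Mean levels were 222 ± 8.29 CPM in Sen(IR), 166 ± 9.54 CPM after CTPI2, 16.2 ± 1.40 CPM in Prol and 2.83 ± 0.226 CPM after UK5099 (SD, n = 3).

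CCL20 had no count in any Prol or UK5099 library. It had 114, 108 and 104 counts in Sen(IR) and 50, 50 and 69 with CTPI2. The Sen(IR) libraries spanned 5.07 to 5.11 CPM, and all stood above the CTPI2 libraries, which spanned 2.06 to 2.98 CPM. The order of levels was Sen(IR), then CTPI2, then the groups at 0, without overlap.

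CCL7 followed the same on and off pattern at a lower level. Prol and UK5099 libraries had 0 counts, Sen(IR) libraries 34, 31 and 25 and CTPI2 libraries 26, 24 and 22. These correspond to 1.22 to 1.51 CPM in Sen(IR) and 0.952 to 1.14 CPM with CTPI2, so the ranges did not overlap, though the lowest Sen(IR) library lay close to the highest CTPI2 library.

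CCL5 was detected at the edge of the depth. It had 0 counts in the 3 Prol libraries, 11, 5 and 14 in Sen(IR), 0, 2 and 2 with UK5099 and 9, 2 and 15 with CTPI2. Sen(IR) and CTPI2 libraries overlapped, and no UK5099 library exceeded the limit of 3 counts.

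CCL8, of the same cluster as CCL2 and CCL7, had 0 counts in Prol, 4, 1 and 3 in Sen(IR), 0, 4 and 0 with UK5099 and 2, 1 and 2 with CTPI2. All 3 irradiated groups overlapped in this gene, at or barely above 3 counts. CCL26 was the second member with counts in Prol: 6, 2 and 9 there, 12, 7 and 10 in Sen(IR), 0, 1 and 0 with UK5099 and 5, 6 and 8 with CTPI2. The UK5099 libraries stood below all others in CCL26, while Prol and CTPI2 libraries each overlapped with Sen(IR).

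**Figure D1:**
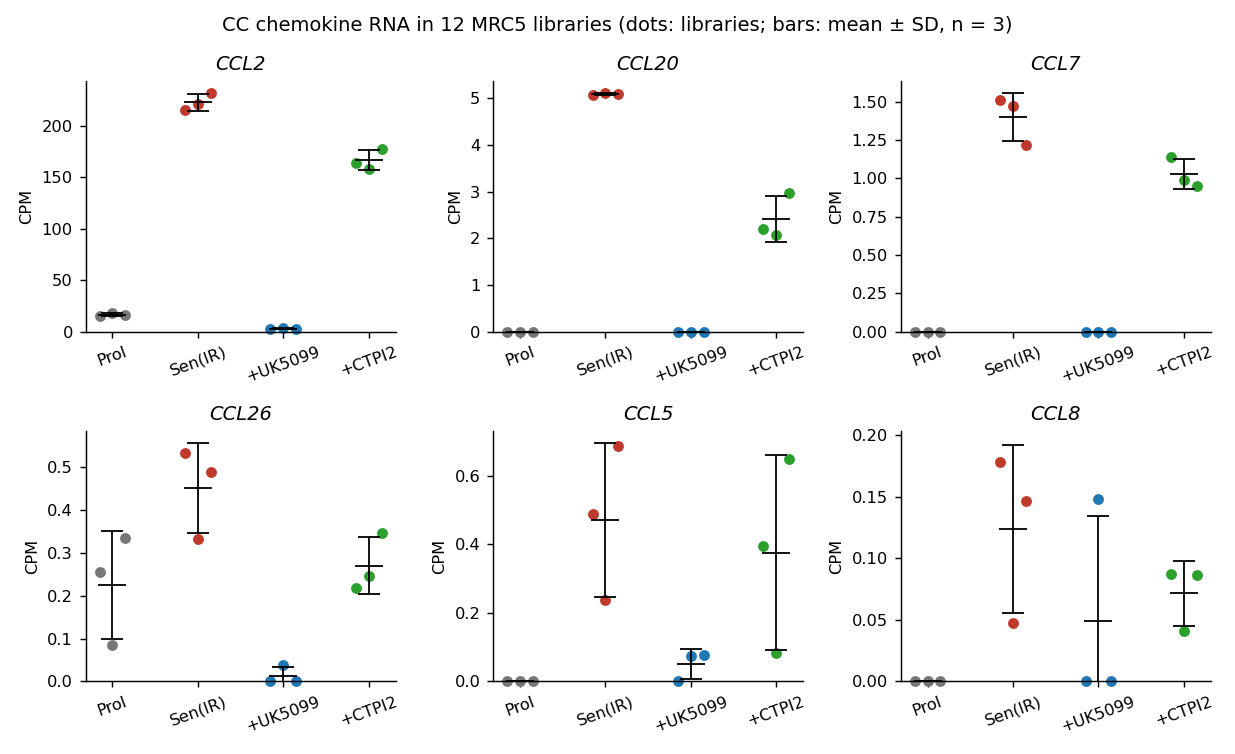
CPM of each of the 6 CC chemokines in each library (dots) of the 4 groups, with bars for mean ± SD (n = 3) and a separate linear axis per gene. CCL2, CCL20 and CCL7 form separate groups of dots, with CCL20 and CCL7 at 0 in Prol and with UK5099, while the dots of CCL5 and CCL8 overlap between Sen(IR) and CTPI2.

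Between genes, levels were compared per kb of merged exon. In Sen(IR) the order of mean levels was CCL2 at 115 ± 4.29 CPM per kb, CCL20 at 3.19 ± 0.0151, CCL7 at 1.62 ± 0.179, CCL26 at 0.642 ± 0.151, CCL5 at 0.345 ± 0.165 and CCL8 at 0.144 ± 0.0791 (SD, n = 3). CCL2 was 36.0 times the level of CCL20, the next member, on this length, 19.1 times on the length of the longest transcript and 49.2 times on that of the canonical transcript. CCL2, CCL20, CCL7 and CCL26 did not overlap with one another, but the libraries of CCL26 (0.472 to 0.759) overlapped with those of CCL5 (0.174 to 0.503), and those of CCL5 with those of CCL8 (0.0549 to 0.206). With CTPI2 the order was the same, from 86.0 ± 4.93 for CCL2 and 1.51 ± 0.314 for CCL20 to 0.0833 ± 0.0307 for CCL8, but CCL20 (1.29 to 1.87) there overlapped with CCL7 (1.10 to 1.32). In Prol, CCL2 stood at 8.40 ± 0.724 and CCL26 at 0.320 ± 0.181 CPM per kb, with the other 4 members at 0. With UK5099, CCL2 was at 1.46 ± 0.117, and no other member had a mean above 0.0573.

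**Figure D2:**
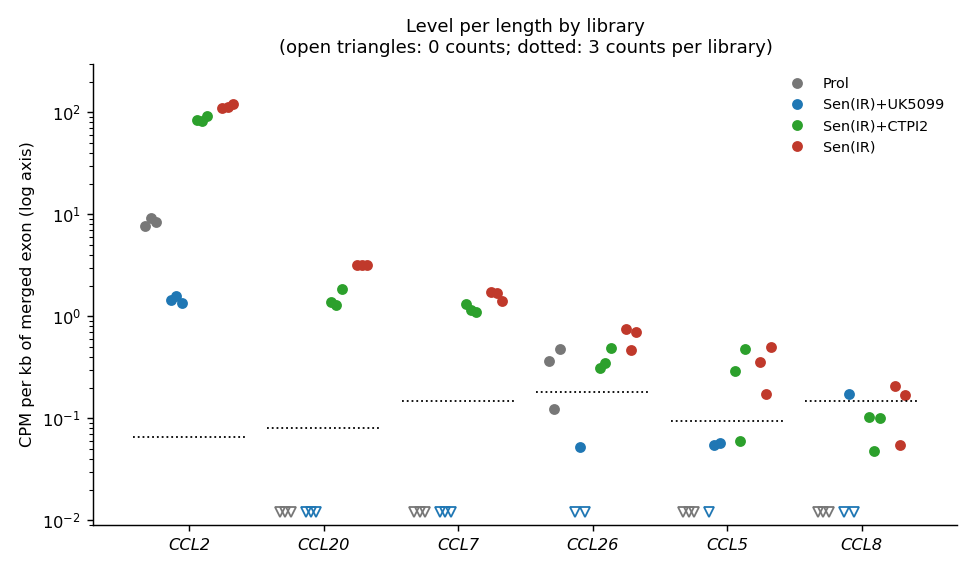
Level of each member per library in CPM per kb of merged exon on a log axis, coloured by group. Open triangles at the bottom are libraries with 0 counts and dotted lines are the level of 3 counts per library. CCL2 lies far above the other members in Sen(IR), at 115 against 3.19 CPM per kb for CCL20.

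The length used matters for these levels, since merged exons of CCL2 span 1935 bases and those of CCL20 1594 bases, whereas their canonical transcripts have 741 and 834 bases. With canonical lengths, an alternative added after the data were seen, CCL2 stood at 300 CPM per kb in Sen(IR) and CCL20 at 6.11, and the order of the members was unchanged in each group.

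As a share of the summed level per kb of the 26 CC ligands listed in the table, CCL2 made up 93.6% ± 2.32 in Prol, 94.5% ± 0.306 in Sen(IR) and 95.3% ± 0.252 with CTPI2. With UK5099 it made up 71.6% ± 9.33 (61.5% to 79.9% over the 3 libraries). The summed level itself was 8.96 ± 0.653 CPM per kb in Prol, 122 ± 4.32 in Sen(IR), 90.2 ± 5.39 with CTPI2 and 2.08 ± 0.440 with UK5099, where 104 to 141 counts per library stood behind it. CC ligands outside the 6 members held 23.8% ± 3.81 of the level with UK5099 against 0.552% ± 0.0693 in Sen(IR). Of these, only CCL28, a chemokine of mucosal epithelia, passed the filter, with 22, 37 and 29 counts in Sen(IR) and 35, 40 and 29 with UK5099.

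The first comparison asked which CC chemokines rise with senescence. CCL2, CCL20, CCL7 and CCL5 were all called higher in Sen(IR), that is 4 of 4 tested members, where 24.8% of the 16251 genes were called higher. A call required a Benjamini-Hochberg adjusted p under 0.05 over all genes in edgeR's quasi-likelihood test and an absolute log2 fold change over 0.5. Since CCL5, CCL7 and CCL20 had no counts in Prol and passed the filter only through irradiated libraries, their count among the calls describes them and is not evidence about the family. CCL2 rose 13.7-fold (log2 fold change 3.78, SE 0.0689, edgeR adjusted p 2.9e-21). Against the limit of 3 counts per Prol library, CCL20 was at least 41.5-fold higher (adjusted p 1.45e-11 in edgeR), CCL7 at least 11.4-fold higher (4.04e-08) and CCL5 at least 3.84-fold higher (0.000212).

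CCL8 and CCL26 were not tested in that fit. CCL8 averaged 0.124 CPM in Sen(IR) beside a limit of 0.123 CPM in Prol, with no overlap between libraries, a pattern that 35.3% of all genes tested showed in this direction. Without the filter on low counts its adjusted p was 0.0392 in edgeR, and with DESeq2 0.0624. CCL26 had 29 counts in Sen(IR) and 17 in Prol, a ratio of 1.96 after scaling (95% counting interval 1.04 to 3.81), but its libraries overlapped (two-sided exact permutation p = 0.2, where 3 against 3 libraries cannot go below 0.1).

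**Figure D3:**
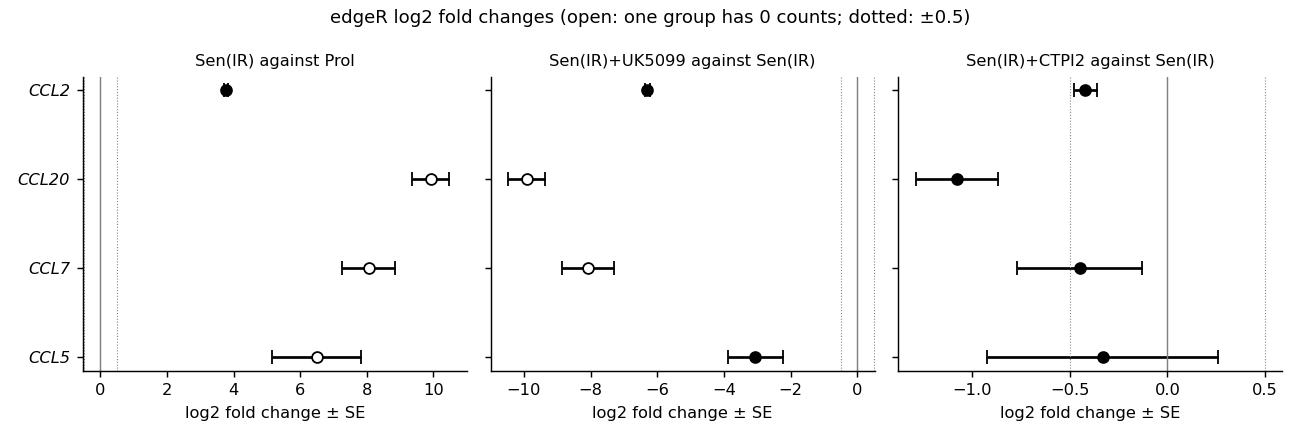
edgeR log2 fold changes (x axis, bars ± SE) of the 4 tested CC chemokines in 3 comparisons, each with its own axis. Open circles have a group with 0 counts, so their position depends on the fit and is no measured size, and dotted lines mark ±0.5. CCL2 moves by 3.78 with senescence and −6.29 with UK5099, and by −0.42 with CTPI2.

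The second comparison asked what inhibition of pyruvate import does to these genes in irradiated cells. CCL2, CCL20, CCL7 and CCL5 were called lower in Sen(IR)+UK5099 than in Sen(IR), 4 of 4 tested members, where 12.1% of genes were called lower. In this comparison and the later ones CCL20, CCL7 and CCL5 were tested only because of their counts in Sen(IR) and CTPI2 libraries, so a count over the 4 members describes them and is not evidence about the family. CCL2 was 78.4-fold lower (log2 fold change −6.29, SE 0.0863, edgeR adjusted p 2.75e-23). CCL20 was at least 43.5-fold lower (edgeR adjusted p 5.34e-11) and CCL7 at least 12-fold lower (1.19e-07), both with 0 counts in every UK5099 library. CCL5 fell from 30 counts to 4 over 3 libraries, a 9.02-fold lower pooled rate (95% counting interval 3.18 to 35.2; edgeR log2 fold change −3.05, SE 0.830, adjusted p 0.00511).

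Of the untested members, CCL26 went from 29 counts to 1, a pooled rate 34.9-fold lower with a wide counting interval (5.78 to 1420). Its adjusted p was 2.8e-05 in edgeR without the filter and 0.000994 in DESeq2. CCL8 had 8 counts against 4, all 4 in a single UK5099 library (pooled ratio 0.416, 95% counting interval 0.0916 to 1.55), so no difference was detectable at this depth. In all, the UK5099 libraries of 5 of the 6 members lay below those of Sen(IR) without overlap, where 28.6% of genes tested did so. CCL26 is not among the genes tested, and CCL20, CCL7 and CCL5 are only through Sen(IR) and CTPI2. This count thus describes the members and is not evidence about the family.

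In the same comparison 4 of the 8 fibroblast markers were called lower, where 12.1% of genes were. They were the collagen genes COL1A1, COL1A2 and COL3A1 and THY1, with log2 fold changes from −1.75 to −0.76. DCN, LUM, PDGFRB and VIM were not called. The part of this shift in the chemokine values was not tested.

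CCL2 was also lower in UK5099-treated irradiated cells than in proliferating cells, by 5.73-fold (log2 fold change −2.52, SE 0.0999, edgeR adjusted p 5.6e-16). It was the 1 member called in that comparison, where 26.2% of genes were called lower. CCL20, CCL7 and CCL5 had at most 3 counts in every library of both groups and give no fold. CCL26 had 1 count against 17, a pooled rate 17.8-fold lower (95% counting interval 2.78 to 742), without overlap between libraries (37.3% of genes tested lay lower without overlap). Its adjusted p was 0.00217 in edgeR without the filter and 0.00742 in DESeq2. Only CCL2 and CCL26 had counts in Prol, so no other member could have been found below the proliferating level.

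The third comparison asked the same of inhibition of citrate export. CCL20 was the 1 of 4 tested members called lower in Sen(IR)+CTPI2 than in Sen(IR) (log2 fold change −1.08, SE 0.210, 2.11-fold, edgeR adjusted p 0.0239), where 0.148% of genes were called lower. The call was lost in 5 of the 6 fits that left out 1 library, with log2 fold changes from −1.08 to −0.97 and adjusted p from 0.116 to 0.187, and it held without Sen(IR)+CTPI2 replicate 3 (−1.26, 0.0235). CCL2 was 1.34-fold lower (−0.42, SE 0.0576, edgeR adjusted p 3e-04), a difference beyond the spread of replicates that lay under the fold limit of the call. CCL7 was at −0.45 (SE 0.321, adjusted p 0.854), with an approximate 95% interval of −1.08 to 0.18, and CCL5 at −0.33 (SE 0.592, adjusted p 0.961), with an interval of −1.49 to 0.83. These intervals allow a decrease as large as that of CCL20 as well as none.

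In counts alone, CCL26 went from 29 to 19 with CTPI2 (pooled ratio 0.598, 95% counting interval 0.317 to 1.10) and CCL8 from 8 to 5 (0.570, 0.147 to 1.98), and both overlapped between the groups. CCL2, CCL7 and CCL20 lay lower in all 3 CTPI2 libraries than in any Sen(IR) library, where 8.3% of genes tested did. Relative to CCL2 within each library, CCL20 made up 22.9 ± 0.803 counts per 1000 CCL2 counts in Sen(IR) (22 to 23.5) and 14.4 ± 2.14 with CTPI2 (13 to 16.9; SD, n = 3), without overlap. The ratio of CCL7 to CCL2 was 6.32 ± 0.912 and 6.19 ± 0.777 counts per 1000, with overlapping libraries. These ratios do not depend on how libraries are scaled.

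The inhibitors were also compared with each other. UK5099 libraries were called below CTPI2 libraries in CCL2, CCL20, CCL7 and CCL5, where 11.7% of genes were called lower. For CCL2 the difference was −5.87 (log2 fold change, SE 0.0864, edgeR adjusted p 1.22e-22). CCL20 was at least 20.6-fold lower (edgeR adjusted p 2.28e-09) and CCL7 at least 8.77-fold lower (5.56e-07). CCL5 was at −2.72 (SE 0.855, adjusted p 0.0138), and its adjusted p rose to 0.0546 without Sen(IR)+UK5099 replicate 1 and to 0.0989 without Sen(IR)+CTPI2 replicate 3. The inhibitors were used at different concentrations and act on different carriers, so these values stand side by side as measured.

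Against Prol, CTPI2-treated irradiated cells kept all 4 tested members called higher, where 24.8% of genes were. CCL2 was 10.2-fold higher (log2 fold change 3.36, SE 0.0685, edgeR adjusted p 1.44e-20), CCL20 at least 19.7-fold, CCL7 at least 8.37-fold and CCL5 at least 3.06-fold. Without Sen(IR)+CTPI2 replicate 3, an alternative added after the data were seen, CCL5 was at least 1.94-fold higher. The comparisons share libraries (Sen(IR) serves as the reference for both inhibitors and Prol for 3 groups), so their values are not independent of each other.

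Receptors for CC chemokines were scarce in these cells. Of 15 receptors and scavengers, 4 passed the filter: CCR7, CCR10, CCRL2 and ACKR4. CCR7, CCR10 and ACKR4 were called higher in Sen(IR) than in Prol, where 24.8% of genes were, and the median log2 fold change of the 4 was 1.92 against 0.0139 over all genes tested. ACKR4, an atypical receptor that takes up chemokines such as CCL19 and CCL21 without signalling for migration, had 7, 11 and 4 counts in Prol, 120, 124 and 115 in Sen(IR), 2, 4 and 8 with UK5099 and 108, 115 and 110 with CTPI2. UK5099 lowered its count (−4.91 on the log2 scale, SE 0.296, edgeR adjusted p 6.36e-12) and the other 3 were not called (median of the 4, −0.64, against 0.00991 over all genes tested). In Prol, CCR7 had 10, 13 and 7 counts, CCR10 8, 9 and 8 and CCRL2 7, 4 and 8. The Prol libraries alone would thus have passed none of the 4, which needed irradiated groups to pass the filter, ACKR4 those of Sen(IR) and CTPI2. The counts of calls and the medians thus describe these 4 genes and are not evidence about the receptors. CCR2, CCR3 and CCR6, named above as receptors of members, did not pass the filter.

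Cytokines that induce CC chemokines were listed with the receptors. Of 11 listed, IL1A, IL1B, IL6 and LIF passed the filter, and these 4 were called higher in Sen(IR) than in Prol (median log2 fold change 4.89), where 24.8% of genes were. IL1A had 4, 3 and 4 counts in Prol and 0, 2 and 6 with UK5099, and IL1B, given below, was also low in both groups. IL1A and IL1B thus passed the filter only through the groups in which they are high. The counts of calls and the medians therefore describe these genes and are not evidence about the list. TNF, OSM, IL4, IL13, IL17A, IFNB1 and IFNG, the others on the list, did not pass it. IL1B, a cytokine that activates NF-κB through the IL-1 receptor, had 11, 5 and 12 counts in Prol, 304, 271 and 301 in Sen(IR), 1, 2 and 1 with UK5099 and 143, 145 and 197 with CTPI2. IL6, which signals through gp130 and STAT3, had 56, 50 and 98 counts in Prol, 2717, 2203 and 2341 in Sen(IR), 38, 30 and 21 with UK5099 and 1350, 1378 and 1573 with CTPI2. Both genes kept the order Sen(IR), CTPI2, Prol, UK5099 that CCL2 had, without overlap between groups.

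These 4 were called lower with UK5099 (median −5.87), where 12.1% of genes were, with IL1A at −5.13 (SE 0.447) and LIF at −1.69 (SE 0.0590). With CTPI2, IL1B (−0.98, SE 0.140, edgeR adjusted p 0.000425) and IL6 (−0.89, SE 0.0911, adjusted p 6.01e-06) were called lower, and LIF (−0.41, adjusted p 3e-04) and IL1A (−0.63, adjusted p 0.611) were not. The median of the 4 was −0.76 against 0.00321 over all genes tested.

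All 15 receptors for inducing cytokines passed the filter. In Sen(IR) against Prol, IL1R1, IL13RA2, IFNGR1, IFNGR2 and IFNAR1 were called higher and TNFRSF1B and IL4R lower (median 0.24), that is 5 and 2 of 15, where 24.8% of genes were called higher and 22.4% lower. With UK5099, 4 were called lower, namely TNFRSF1B (−1.23), IL6ST (−0.84), IL4R (−1.30) and IL13RA2 (−1.77), and 11 were not called (median −0.11), where 12.1% of genes were called lower. IL1R1, the signalling receptor of IL-1, was among those not called (0.20, adjusted p 0.0803).

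All 24 transcription factors and RNA regulators of CC ligand genes were tested. In Sen(IR), 11 were called higher and 4 lower (median 0.36), where 24.8% of genes were higher and 22.4% lower. The 4 lower, opposite in direction to the tested members, were FOS (−1.75), FOSL1 (−1.81), ZFP36 (−0.63) and ELAVL1 (−0.76). With UK5099, 13 were called lower and 1 higher (median −0.66), where 12.1% of genes were lower and 8.76% higher. Those lower included NFKB2 (−1.06) and RELB (−1.84), subunits of NF-κB, and the NF-κB-induced feedback regulators NFKBIA (−1.97), TNFAIP3 (−4.28) and ZC3H12A, an endoribonuclease that degrades cytokine transcripts (−2.91). NFKBIZ, a nuclear cofactor of NF-κB, was at −2.33, IRF1 at −1.16 and IRF7 at −1.28. Also called lower with UK5099 were NFKB1 (−0.57), FOS (−1.32), FOSL1 (−0.996), JUNB (−1.07) and CEBPB (−0.74). RELA, at −0.28, lay under the fold limit with an adjusted p of 0.000479. The gene called higher was ZFP36, which encodes tristetraprolin, a protein that binds AU-rich elements and promotes decay of cytokine and chemokine messages. It had 550, 664 and 716 counts in Prol, 362, 352 and 371 in Sen(IR) and 820, 833 and 905 with UK5099. ZFP36 thus moved opposite to the tested members in both comparisons (−0.63 on the log2 scale for senescence and 0.97 for UK5099, with adjusted p of 2.81e-06 and 9.71e-09 in edgeR). The other RNA regulators differed: ZC3H12A moved with the tested members (2.73 for senescence, −2.91 for UK5099). ZFP36L1 was called in neither comparison (0.13 and −0.06), and ELAVL1 was not called with UK5099 (−0.09). A link between these genes and the chemokine levels was not tested.

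Among genes for cleavage and retention of chemokines, 9 of 11 were tested. DPP4, a peptidase that trims the amino terminus of several CC chemokines, rose in Sen(IR) (log2 fold change 2.62) and fell with UK5099 (−1.86), with 5292, 7211 and 6248 counts in Prol, 35270, 33213 and 32165 in Sen(IR) and 10191, 11829 and 11326 with UK5099. The collagenase MMP1 (−2.32), the stromelysin MMP3 (−2.13) and the heparan sulfate proteoglycan SDC1 (−0.51) were the others called lower with UK5099 (4 of 9, median −0.23, where 12.1% of genes were called lower). With CTPI2, edgeR called 0 of the 4 CC receptors, 0 of the 15 cytokine receptors, 0 of the 24 regulators and 0 of the 9 cleavage and retention genes. DESeq2 also called 0 in each list. At an unadjusted p under 0.05 without a fold limit the edgeR counts were 0, 3, 8 and 2. The share of all genes under that looser limit was not computed, so the unadjusted counts have no background to be set against. With 0.148% of all genes called lower and 0.0185% higher in that comparison, counts of 0 are near the background and say nothing particular about these lists. NFKBIZ and TNFAIP3 passed the adjusted p there but were at −0.38 and −0.40, under the fold limit.

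**Figure D4:**
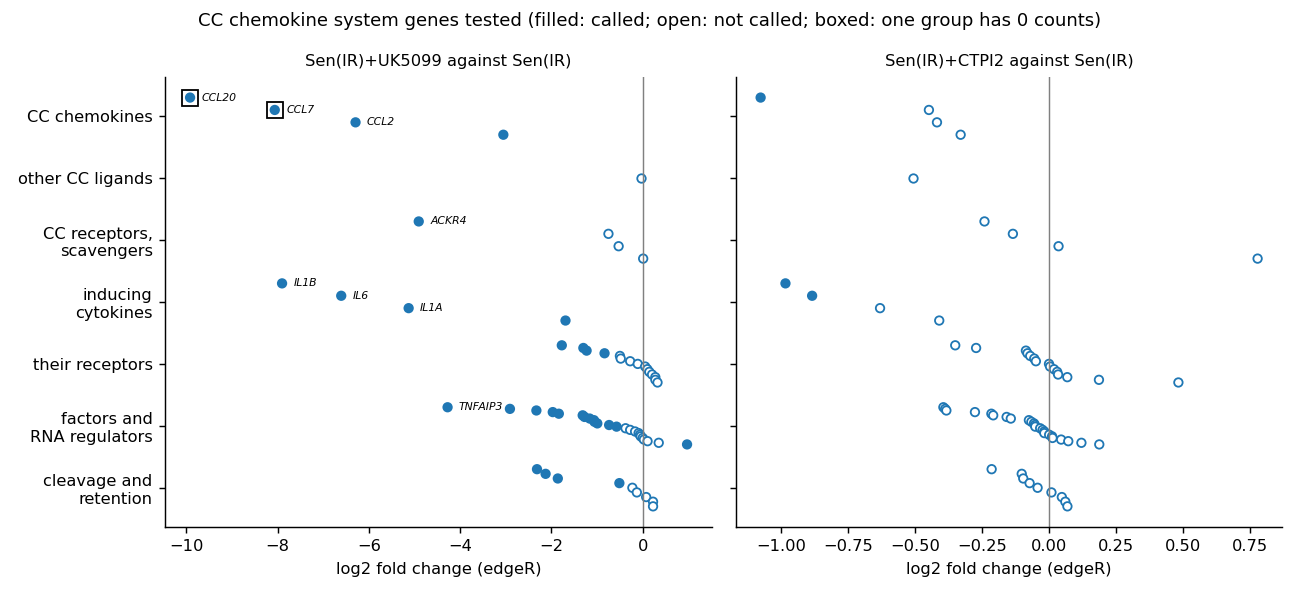
edgeR log2 fold changes of every tested gene in 7 gene lists for UK5099 (left) and CTPI2 (right) against Sen(IR), with separate x axes. Filled points are called, open points are not, and boxes mark members with 0 counts in one group, whose position depends on the fit. In the CTPI2 panel 3 points are filled: CCL20, IL1B and IL6.

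Genes around the members were counted next. Of the 7 other protein-coding genes that start within 500 kb of CCL2, CCL7 was the 1 that passed the filter. Around CCL5, 7 other genes were tested, of which 1 was called higher and 2 lower with UK5099 (median log2 fold change 0.05). Around CCL20, 4 others were tested, with 1 called higher and 0 lower (median 0.42), and around CCL26 10 others, with 1 higher and 0 lower (median 0.05). Over all genes tested, 8.76% were called higher and 12.1% lower with UK5099, and the neighbour counts are too small to be set against these shares. No neighbour of CCL5 or CCL20 had a log2 fold change as low as that of CCL5 or CCL20 itself.

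**Figure D5:**
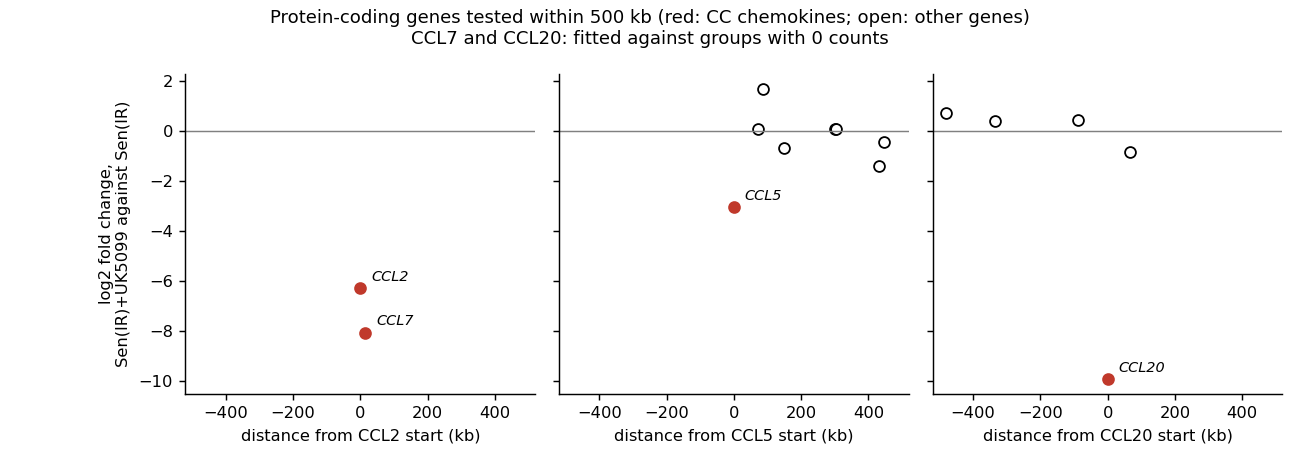
edgeR log2 fold change with UK5099 against Sen(IR) for protein-coding genes tested within 500 kb of the start of CCL2, CCL5 and CCL20. The x axis is the distance in kb from that start, positive in the direction of transcription of the member. The panel of CCL5, on the minus strand, thus runs against the chromosome coordinate. The CC chemokines (red) lie at −3.05 or lower, and the other genes (open) lie between −1.42 (SLFN13) and 1.67 (MMP28). CCL7 and CCL20 had 0 counts with UK5099, so their position depends on the fit.

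Some genes elsewhere in the genome varied much like the members. Likeness was measured as the root mean square difference between log2 CPM values centred on each gene, over the 12 libraries and 13372 candidate genes. The gene closest to CCL2 was CTSS, which encodes the lysosomal cysteine protease cathepsin S, with a difference of 0.133. CTSS stood at 1.87 CPM in Prol, 27.4 in Sen(IR), 0.310 with UK5099 and 20.5 with CTPI2, and its log2 fold changes were 3.87 for senescence, −6.43 for UK5099 and −0.42 for CTPI2, beside 3.78, −6.29 and −0.42 for CCL2. IL1B (0.501) and IL6 (0.658) came next. IL6 was the closest to CCL20 (0.494), followed by CXCL3, a neutrophil-attracting CXC chemokine (0.523), and VCAM1, an adhesion molecule for leukocytes (0.584).

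The closest genes to CCL7 were IFI6 (0.322), VNN2 (0.344) and CD36 (0.363), and those to CCL5 were NAMPTP1 (0.507), C5orf56 (0.538) and NFKBIZ (0.542). For these low members the centred values are compressed by the prior count of 2 added before logs, and the members themselves ranked lower: in closeness to CCL2, CCL20 ranked 11, CCL7 14 and CCL5 154. Ranks depended on the member they were taken from. In closeness to CCL7, CCL20 ranked 32, CCL2 71 and CCL5 94, and to CCL20, CCL7 ranked 10, CCL2 18 and CCL5 97. Among the 13372 candidates for CCL5, CCL7 ranked 2508, CCL20 12736 and CCL2 12847, so most genes were closer to CCL5 than CCL2 was. The 12 libraries share their groups, and likeness is given as a description without a test.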

How the data were processed

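RNA from MRC5 fibroblasts, in 12 libraries (4 groups of 3, from the sample titles), was sequenced as paired reads (2 ends of 150 bases). Per the labels, the authors used Trimmomatic 0.36, STAR 2.5.2b and featureCounts of Subread 1.5.2 with GRCh38. Their deposited table holds raw counts per gene, not normalized, and 0 of its columns belonged to other samples. The counting strand is not given in the sources used here. From these counts, genes were filtered with filterByExpr (count minimum 10), scaled by TMM and fitted in R 4.3.3 with the quasi-likelihood test of edgeR 4.0.16, all 12 libraries in one fit without a replicate term. Standard errors are the absolute log2 fold change divided by the square root of F. Calls needed a p below 0.05 after Benjamini-Hochberg adjustment and a log2 fold change beyond ±0.5. The study used DESeq2 without adjustment, and both DESeq2 1.42.0 and unadjusted p were run as alternatives. Total counts of 20597736 to 28245693 per library set the precision: 3 counts, the limit that a count of 0 allows, were used as the floor for bounds. Ratios of low counts carry exact conditional 95% intervals.

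Gene positions and lengths came from GENCODE for GRCh38, and promoter sequences from RefSeq (GRCh38.p14). Named genes are the members, genes of fixed lists that were called in a comparison, and the 3 genes most like each tested member. Genes of the lists that were not called are counted, and a few were also named after their values were seen. The members and lists were chosen with earlier results of these data known. Scripts were tested on simulated data. Further alternatives were other scalings, no filter, only the groups compared, a replicate block, another fold limit, other gene lengths and each library left out.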

Additional observations from a re-analysis of the deposited data

How the results depend on the processing

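Calls of the 6 members were recomputed under RLE and upper-quartile scaling, without the filter on low counts, with DESeq2, with only the groups compared, with a replicate block, at an unadjusted p under 0.05, at an absolute log2 fold change over 1 and with each library left out. Outside the fits that left out a library, 46 of 48 counts of called members stayed within 1.5 times the count given. The others were those of Sen(IR)+UK5099 against Prol, with 2 members called lower without the filter and 2 with DESeq2, as CCL26 then entered the test. With a library left out, 31 of 36 counts stayed, and for Sen(IR)+CTPI2 against Sen(IR) the count ranged from 0 to 1. The log2 fold change of CCL5 with CTPI2, not called, ranged from −0.98 to 0.15 with a library left out. The deviations of same-numbered libraries from their group means correlated at −0.158 to 0.104, and a library correlated best with its own number in 17 of 36 cases. These values were not tested against chance, so they do not settle whether the numbers pair the libraries. With the replicate block the members called were 4, 4, 1, 4, 1 and 4 in the order Sen(IR) against Prol, UK5099 and CTPI2 against Sen(IR), UK5099 against CTPI2, and UK5099 and CTPI2 against Prol. In that block fit CCL20 was at −1.09 with CTPI2 (edgeR adjusted p 0.0379). Levels and shares moved beyond 1 SD in 11 and 17 of 72 values each, with another gene length or scaling. Depth limits CCL8, CCL26 and CCL5 most, with at most 15 counts in a library.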
